A study of Mus musculus with 10 samples.

Results

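Hypothalamic neuropeptides are described here through 9 genes: Avp, Oxt, Hcrt, Pmch, Cartpt, Trh, Gal, Nts and Adcyap1. Each had 1 probe set whose only annotated gene symbol was one of these, so they make up 9 of 19938 genes with such a probe set (21789 probe sets), on an array of 35556 probe sets. The brains were those of adult male offspring, postnatal day 70, of C57BL/6J mothers. In the ethanol groups the mothers could drink 10% ethanol or plain water, through mating, pregnancy and nursing until their pups were 10 days old, and in the control groups they had plain water alone. Each array held RNA pooled from whole brains, with 2 ethanol and 2 control arrays of 3 mice each in experiment 1, and 3 ethanol and 3 control arrays of 2 mice each in experiment 2. No allele or transgene is named in the labels, and pooling was meant to lessen litter effects, but which litters a pool drew on is not given, so the p-values rest on how much the pools varied. The comparison asks whether early ethanol exposure leaves a difference in these transcripts in the adult brain.

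Neuropeptides are cut from larger precursors in secretory granules and released from neurons to act on G-protein-coupled receptors, locally or, for vasopressin and oxytocin, through the blood. Avp, Oxt, Hcrt and Pmch are made by small and largely separate groups of hypothalamic neurons, while Cartpt, Trh, Gal, Nts and Adcyap1 are also transcribed in other brain regions. In whole-brain RNA the hypothalamus is one small part, and fewer cells of a type and less RNA per cell cannot be told apart.

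Of the 9, the largest differences between ethanol and control arrays were those of Adcyap1, which encodes the peptide PACAP, Trh, thyrotropin-releasing hormone, and Nts, neurotensin. Over both experiments Adcyap1 differed by -0.20, Trh by -0.15 and Nts by -0.14 log2 units (ethanol minus control). In experiment 2, Adcyap1, Nts and Gal, which encodes galanin, were lower on all 3 ethanol arrays than on any control array. So were 11.6% of all gene probe sets, and the groups of all 3 genes overlapped in experiment 1. The magnocellular hormones Avp and Oxt differed by 0.01 and 0.02 over both experiments, with opposite signs in the 2 experiments. None of the 9 passed an adjusted p of 0.05 in any comparison.

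The start regions of 5 of these genes are shown, the 3 without overlap in experiment 2 and the neighbouring pair Avp and Oxt. Each window runs from 250 bases before to 50 bases after the start of transcription, 5′ to 3′, as given by RefSeq for GRCm38.p6. Capitals mark exact matches to TATAAA (a form of the TATA box) or CACGTG (the E-box bound by CLOCK and BMAL1). They also mark TGACGTCA (the cyclic AMP response element) and TGANTCA, where N is any base. The latter is wider than the AP-1 site bound by Fos and Jun proteins, which has C or G at N. Variant forms of a motif, including those of the TATA box, are not marked. Of the windows that RefSeq lists for Adcyap1, the downstream one is shown.
Adcyap1, chr17:93198918-93199217, plus strand: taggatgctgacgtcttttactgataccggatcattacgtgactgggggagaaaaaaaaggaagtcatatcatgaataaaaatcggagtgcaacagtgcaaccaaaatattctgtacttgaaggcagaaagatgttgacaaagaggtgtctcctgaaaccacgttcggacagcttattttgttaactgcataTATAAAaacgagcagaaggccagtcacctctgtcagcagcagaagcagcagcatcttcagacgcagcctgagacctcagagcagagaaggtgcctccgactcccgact
Nts, chr10:102490369-102490668, minus strand: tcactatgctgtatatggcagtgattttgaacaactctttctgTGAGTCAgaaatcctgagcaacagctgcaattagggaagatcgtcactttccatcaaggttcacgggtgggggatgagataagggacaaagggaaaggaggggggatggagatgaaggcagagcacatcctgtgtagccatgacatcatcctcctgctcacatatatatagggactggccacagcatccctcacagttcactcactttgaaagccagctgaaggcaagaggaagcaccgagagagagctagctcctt
Gal, chr19:3414495-3414794, minus strand: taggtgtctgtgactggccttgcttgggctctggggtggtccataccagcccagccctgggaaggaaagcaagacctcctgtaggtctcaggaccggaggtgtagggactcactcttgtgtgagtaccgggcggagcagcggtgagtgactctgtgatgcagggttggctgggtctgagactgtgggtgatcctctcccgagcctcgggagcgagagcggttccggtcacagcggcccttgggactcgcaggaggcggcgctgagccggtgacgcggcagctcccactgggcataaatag
Avp, chr2:130582539-130582838, minus strand: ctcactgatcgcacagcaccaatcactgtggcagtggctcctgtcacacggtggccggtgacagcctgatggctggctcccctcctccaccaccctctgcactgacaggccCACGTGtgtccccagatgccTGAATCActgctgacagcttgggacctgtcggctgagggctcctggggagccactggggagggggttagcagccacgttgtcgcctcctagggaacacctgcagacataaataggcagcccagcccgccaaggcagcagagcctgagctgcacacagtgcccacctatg
Oxt, chr2:130575919-130576218, plus strand: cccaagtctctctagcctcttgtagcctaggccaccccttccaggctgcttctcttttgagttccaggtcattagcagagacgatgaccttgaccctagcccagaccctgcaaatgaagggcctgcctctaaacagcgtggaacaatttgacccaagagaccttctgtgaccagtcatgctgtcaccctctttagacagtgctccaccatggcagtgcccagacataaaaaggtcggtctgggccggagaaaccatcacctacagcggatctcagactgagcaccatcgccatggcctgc

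All 9 genes matched a promoter entry, in 10 windows, since Adcyap1 had 2. Both strands were searched, and no match of one motif overlapped a match of another. TATAAA matched in 3 of the 10 windows (Hcrt, Pmch and the downstream window of Adcyap1), against 13.6% of all 32851 mouse windows of the same length. TGANTCA matched in Avp (119 bases before the start), Nts (207 bases before) and Pmch (88 bases before). With any base at N it matched in 7.81% of all windows. The match reads TGAGTCA in Nts and Pmch but TGAATCA in Avp, which lacks the C or G of the AP-1 site. The E-box matched in Avp alone, 139 bases before the start (7.15% of all windows), and the cyclic AMP response element in Cartpt alone, 112 bases before the start (1.79%). Oxt, Gal and Trh held none of these exact strings in the window, and variant forms were not searched. Such matches describe the sequence and do not show binding. RefSeq places Oxt and Avp side by side on chromosome 2 with no protein-coding gene between them, on opposite strands. It places Pmch across part of Parpbp, and Adcyap1 across part of Gm32465. Where the probes lie relative to those overlaps was not analysed here.

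The deposited log2 levels have one property that sets what can be compared. Every probe set had the same mean in experiment 1 as in experiment 2, to within 5.83e-05, so only differences within an experiment are read here. Array medians ran from 6.99 to 7.05, and arrays correlated with each other at 0.989 to 0.996 over all probe sets. The number of arrays limits the precision. The median standard error of an ethanol difference was 0.0519 log2 units over both experiments, 0.0806 in experiment 1 and 0.0658 in experiment 2. A probe set's level also depends on its own probes, so levels are not set against each other as amounts of RNA. As percentiles of mean level among gene probe sets, Avp lay at 20.8, Gal at 39.6, Trh at 48.2, Nts at 49.5, Cartpt at 50.6, Hcrt at 54.8, Pmch at 55.7, and Oxt and Adcyap1 both at 61.3.

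**Figure D1:**
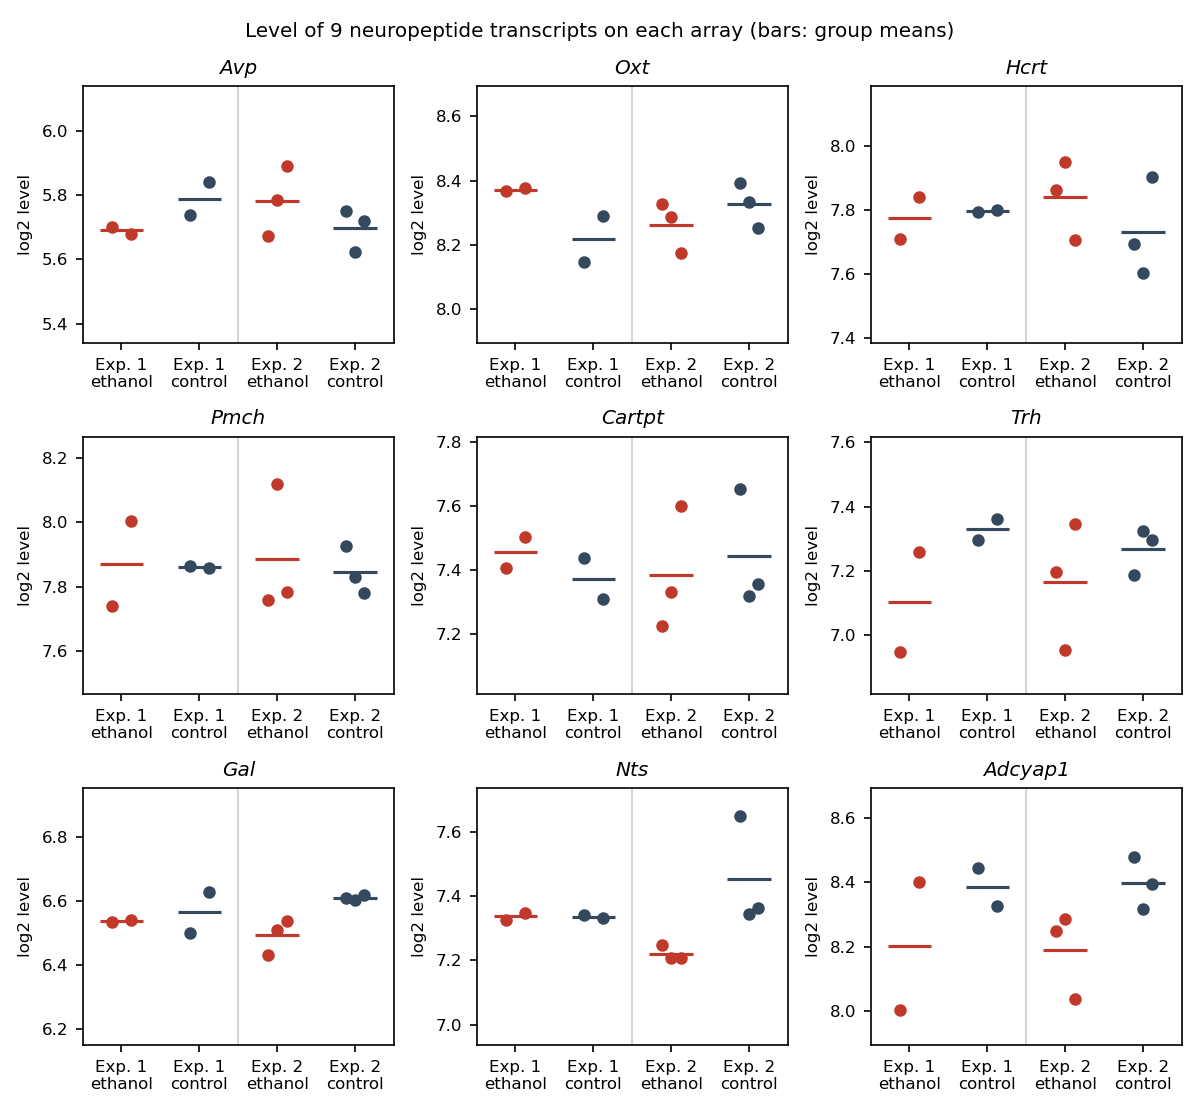
Deposited log2 level of each of the 9 neuropeptide transcripts on each array, with a separate vertical axis per gene that always spans the same number of log2 units. Points are arrays, bars are group means, and ethanol (red) stands left of control (dark) within each experiment. Adcyap1, Nts and Gal have their 3 ethanol points of experiment 2 below its control points, as do 11.6% of all gene probe sets.

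Counted over both experiments, 0 of the 9 transcripts passed an adjusted p of 0.05 by limma, where 0 of all 21789 gene probe sets did (0%). An unmoderated linear model also called 0 of the 21789, here and within either experiment, while 2703 had an unadjusted p under 0.05 by limma and 2422 by the unmoderated model. At an unadjusted p under 0.05, 2 of the 9 were lower (Nts and Adcyap1) and 0 were higher, where the shares of all gene probe sets were 7.68% lower and 4.72% higher. In all, 5 of the 9 differences were below 0, against 54.4% of all gene probe sets, and the median of the 9 was -0.0010 log2 units against -0.0083 over all gene probe sets. The sign was the same in both experiments for 4 of the 9 (Pmch, Trh, Gal and Adcyap1), against 57.5% of all. Within experiment 1, 0 of the 9 passed adjusted p 0.05 or had an unadjusted p under 0.05, with 0% of all gene probe sets passing and 4.02% and 4.93% higher and lower at the unadjusted p. Within experiment 2, 0 passed (0% of all), and Nts alone was lower at an unadjusted p under 0.05, where 6.19% of all gene probe sets were lower and 3.78% higher.

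**Figure D2:**
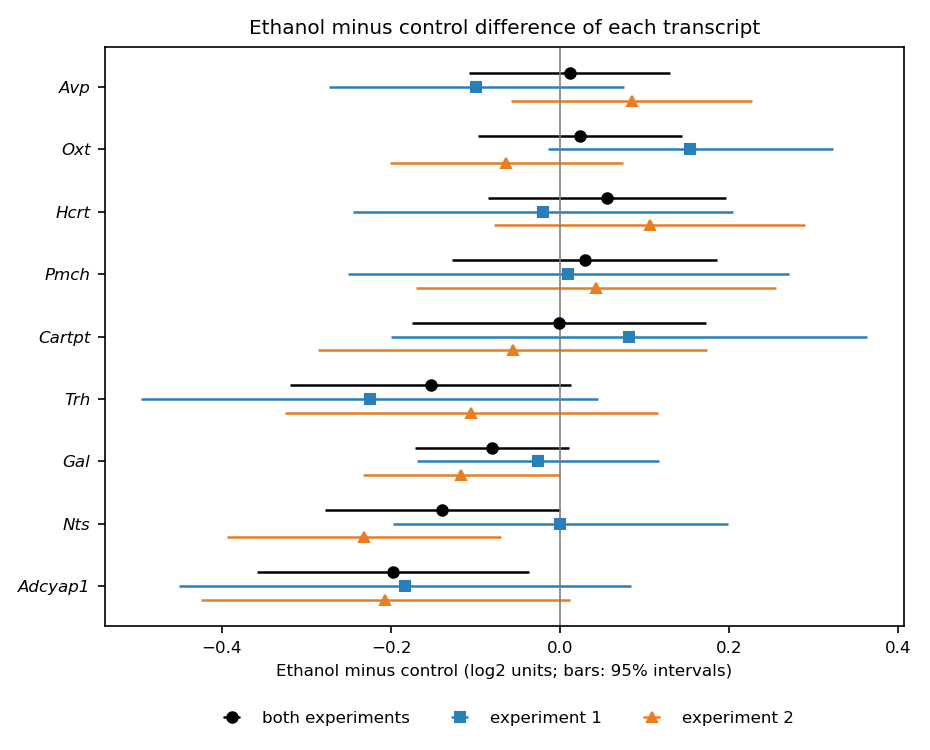
Ethanol minus control in log2 units for each transcript, over both experiments (black circles), in experiment 1 (blue squares) and in experiment 2 (orange triangles), with 95% intervals from the limma fits. The interval over both experiments lies below 0 for Adcyap1 and Nts, and the Avp and Oxt points of the experiments lie on opposite sides of 0.

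Adcyap1 encodes pituitary adenylate cyclase-activating polypeptide, a peptide that raises cyclic AMP in its target cells and is known for its part in stress responses. In experiment 1 its level was 8.0 and 8.40 log2 units on the ethanol arrays, against 8.44 and 8.33 on the control arrays. The first ethanol array was low and the second lay between the controls, so the groups overlapped. In experiment 2 the ethanol arrays had 8.25, 8.28 and 8.04, against 8.48, 8.32 and 8.40 on the control arrays, with no overlap. Over both experiments the difference was -0.20 ± 0.07 log2 units (SE, 5 ethanol and 5 control arrays), a level 0.872 times that of controls, with a 95% interval of -0.36 to -0.04. It was lower than the control mean of its experiment on 4 of 5 ethanol arrays. The adjusted p over all gene probe sets was 0.346 by limma. An exact permutation test of treatment within experiments, run for all 9 transcripts after the data were seen, gave a two-sided p of 0.0667 for Adcyap1, where 120 assignments allow none below 0.0167. The differences within experiments were -0.18 ± 0.12 (experiment 1) and -0.21 ± 0.10 (experiment 2). Without ethanol replicate 1 of experiment 1, the difference in that experiment was 0.017 and that over both was -0.14, and without ethanol replicate 2 it was -0.38 in that experiment. Without ethanol replicate 3 of experiment 2, the difference in experiment 2 was -0.13.

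Nts encodes the precursor of neurotensin, a peptide that modulates dopamine neurons and body temperature. In experiment 2 its level was 7.25, 7.21 and 7.21 on the ethanol arrays, against 7.65, 7.34 and 7.36 on the control arrays. Each ethanol array was below each control array, and the first control array stood above the other two by more than the ethanol arrays differed among themselves. The difference was -0.23 ± 0.07 (SE, 3 arrays each, 95% interval -0.39 to -0.07) with a limma adjusted p of 0.378. Without control replicate 1 of experiment 2 it was -0.13. In experiment 1 the level was 7.33 and 7.35 on the ethanol arrays, against 7.34 and 7.33 on the controls, a difference of 0.00 ± 0.09. The 4 arrays of experiment 1 were thus nearly level. Experiment 2 minus experiment 1 was -0.23 ± 0.12 (limma adjusted p = 0.788), so the experiments were not shown to differ. Over both, Nts differed by -0.14 ± 0.06 (limma adjusted p = 0.402, exact permutation p = 0.0667), and by -0.07 without control replicate 1 of experiment 2.

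Gal encodes galanin, an inhibitory peptide of hypothalamic and brainstem neurons that acts on feeding, sleep and pituitary hormone release. Its ethanol arrays in experiment 2 had 6.43, 6.51 and 6.54, against 6.61, 6.6 and 6.62 on the control arrays. The controls were nearly level with each other and all 3 ethanol arrays lay below them (-0.12 ± 0.05, limma adjusted p = 0.501). In experiment 1 the ethanol arrays had 6.54 and 6.54, against 6.50 and 6.63 on the controls, and both lay between the controls. Over both experiments Gal differed by -0.08 ± 0.04, a level 0.946 times that of controls (limma adjusted p = 0.451). It was the one transcript of the 9 below the control mean of its experiment on all 5 ethanol arrays. How many of all gene probe sets share that pattern was not counted. The exact permutation p of 0.05 was the smallest of the 9 and was not adjusted for them. The values of Gal spread the least, over 0.19 log2 units, while those of Adcyap1 spread the most, over 0.48.

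Trh encodes thyrotropin-releasing hormone, which drives the release of thyrotropin and prolactin from the anterior pituitary. In experiment 1 the ethanol arrays had 6.95 and 7.26, against 7.30 and 7.36 on the controls, with no overlap. In experiment 2 they had 7.20, 6.95 and 7.35, against 7.19, 7.32 and 7.30 on the controls, and the third ethanol array was the highest array of that experiment. Over both experiments the difference was -0.15 ± 0.08 (limma adjusted p = 0.436, 95% interval -0.32 to 0.01). Without ethanol replicate 1 of experiment 1 it was -0.09 (and -0.07 within experiment 1), and without ethanol replicate 2 of experiment 2 the difference in experiment 2 was 0.00099. These 2 arrays held the lowest Trh levels and also the highest levels of Gh, growth hormone, a transcript of the anterior pituitary. Gh was at 12.0 and 10.7 on experiment 1's ethanol arrays, against 6.22 and 6.40 on the controls. In experiment 2 it was at 7.75, 13.5 and 7.63 on the ethanol arrays, against 7.51, 7.15 and 9.48 on the controls. The part of pituitary RNA in the Trh values was not tested.

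Across the 9 transcripts, ethanol arrays lay wholly below control arrays for 3 in experiment 2 (Gal, Nts and Adcyap1) and wholly above for 0, where the shares of all gene probe sets were 11.6% and 7.62%. In experiment 1, with 2 arrays a side, they lay wholly below for 2 (Avp and Trh) and wholly above for 1 (Oxt), where the shares were 19.2% and 15.1%. No transcript was without overlap in both experiments, and the share of all gene probe sets without overlap in both was not counted.

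Avp encodes vasopressin, the antidiuretic hormone, with its carrier neurophysin, and is made by magnocellular neurons and by the circadian clock neurons of the suprachiasmatic nucleus. Its ethanol arrays had 5.70 and 5.68 in experiment 1, against 5.74 and 5.84 on the controls, and 5.67, 5.78 and 5.89 in experiment 2, against 5.75, 5.62 and 5.72. The ethanol arrays were thus the lower pair in experiment 1 (-0.10 ± 0.08), and held the highest array of experiment 2 (0.08 ± 0.07). Over both the difference was 0.01 ± 0.05, with a 95% interval of -0.11 to 0.13, and after quantile normalization it was -0.03. Without control replicate 2 the difference in experiment 1 was -0.05, and without ethanol replicate 3 that in experiment 2 was 0.03. Its mean level was below the 25th percentile of gene probe sets.

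Oxt encodes oxytocin, the hormone of parturition and milk ejection, made in neighbouring magnocellular neurons. In experiment 1 its ethanol arrays had 8.37 and 8.38, against 8.15 and 8.29 on the controls, a difference of 0.15 ± 0.08 (limma adjusted p = 0.592), which was 0.08 without control replicate 1. In experiment 2 they had 8.33, 8.29 and 8.17, against 8.39, 8.33 and 8.25, a difference of -0.06 ± 0.06. The ethanol arrays were above both controls in experiment 1 and overlapped the controls in experiment 2, where the difference was -0.019 without ethanol replicate 3 and -0.10 without control replicate 3. Experiment 2 minus experiment 1 was -0.22 ± 0.10 (limma adjusted p = 0.759). Oxt was the 1 of the 9 with an unadjusted p under 0.05 for that difference, which was negative, and 0 had a positive one. Of all gene probe sets, 3.24% had a negative and 3.33% a positive one, and 0% passed adjusted p 0.05. Avp differed between experiments the other way, by 0.18 ± 0.10 (limma adjusted p = 0.816).

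Hcrt encodes hypocretin, also called orexin, the wake-promoting peptide of the lateral hypothalamus whose loss causes narcolepsy. Its ethanol arrays had 7.71 and 7.84 in experiment 1, against 7.79 and 7.80 on the controls, and 7.86, 7.95 and 7.71 in experiment 2, against 7.69, 7.60 and 7.90. The groups overlapped in both experiments, and the difference over both was 0.06 ± 0.06 (95% interval -0.08 to 0.20). It was 0.013 without control replicate 2 of experiment 2 and 0.09 without control replicate 3. Pmch encodes melanin-concentrating hormone, which promotes feeding and sleep and is made by intermingled but separate neurons of the same region. It had 7.74 and 8.0 on experiment 1's ethanol arrays, against 7.86 and 7.86 on the controls, and 7.76, 8.12 and 7.78 in experiment 2, against 7.92, 7.83 and 7.78. Its ethanol arrays spread to both sides of the controls, with a difference over both of 0.03 ± 0.07 (95% interval -0.13 to 0.19), and of -0.036 without ethanol replicate 2 of experiment 2.

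Cartpt encodes the cocaine- and amphetamine-regulated transcript peptide, a satiety signal of the arcuate nucleus that is also made in the midbrain and striatum. Its ethanol arrays had 7.41 and 7.50 in experiment 1, against 7.44 and 7.31 on the controls, and 7.23, 7.33 and 7.60 in experiment 2, against 7.65, 7.32 and 7.36. In experiment 2 the highest and the lowest array were a control and an ethanol array, and the difference over both experiments was the smallest of the 9, at -0.0010 ± 0.08 log2 units (95% interval -0.18 to 0.17).

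The 9 transcripts did not move as 1 group from array to array. Over the 10 arrays, as deviations from the mean of each experiment, the highest correlation of a pair was that of Nts with Adcyap1 (r = 0.571), followed by Gal with Nts (0.544) and Cartpt with Nts (0.508). The lowest was that of Avp with Oxt (-0.519). Taken as deviations from the mean of each experiment and treatment group, the order was another: the highest was Avp with Gal (0.805), followed by Pmch with Adcyap1 (0.697), Avp with Cartpt (0.665), Cartpt with Nts (0.605) and Hcrt with Adcyap1 (0.598). On that scale Nts with Adcyap1 was at 0.350, Gal with Nts at -0.093 and Avp with Oxt at -0.227, and the lowest was Hcrt with Cartpt (-0.338). These are descriptions over 10 arrays that share treatment and pool effects, with no test.

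Among 14810 other genes above the 25th percentile of level, those whose pattern over the 10 arrays was most like that of Adcyap1 were Timm21 (r = 0.978) and Dedd (0.971). For Nts they were Lypla2 (0.962) and Pqlc3 (0.960), for Trh Phactr4 (0.960) and Trappc6b (0.930), and for Gal Tead1 (0.922) and Nt5c3b (0.917). For Avp they were Sec61b (0.956) and Sec61a2 (0.920), and for Oxt Rgs13 (0.941) and Otud7a (0.931). The closest genes to Pmch were Rps12 (0.961) and Ndufb2 (0.924), to Cartpt I730030J21Rik (0.933) and Pcdhb21 (0.917), and to Hcrt 9030619P08Rik (0.907) and Ahctf1 (0.90). The number of genes at r of 0.9 or above ran from 1 for Hcrt to 54 for Adcyap1, with the neuropeptides themselves left out, and these likenesses are descriptions with no test.

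The receptors through which these peptides act were measured for all 18 genes listed, and 0 passed adjusted p 0.05. Over both experiments 11 of the 18 had a positive difference, where 54.4% of all gene probe sets had a negative one. The median of the 18 was 0.0078 log2 units. Avpr2, the renal vasopressin receptor, which is scarcely expressed in brain, had the smallest p (0.14 ± 0.05, limma adjusted p = 0.326). The other vasopressin receptors Avpr1b and Avpr1a differed by 0.10 ± 0.05 and 0.09 ± 0.05. Adcyap1r1, the PAC1 receptor for PACAP, differed by -0.10 ± 0.05 (limma adjusted p = 0.445). Its ethanol arrays had 10.22 and 10.25 in experiment 1, against 10.36 and 10.22 on the controls, and 10.16, 10.14 and 10.29 in experiment 2, against 10.25, 10.31 and 10.42. The groups overlapped in both experiments. Oxtr, the oxytocin receptor, differed by -0.05, Hcrtr1 and Hcrtr2, the hypocretin receptors, by -0.05 and -0.07, and Mchr1, the receptor for melanin-concentrating hormone, by 0.04. Galr1, a galanin receptor, differed by -0.08, Ntsr1 and Ntsr2, the neurotensin receptors, by -0.11 and 0.0024, and Trhr, the thyrotropin-releasing hormone receptor, by -0.10. Of the remaining receptors, Galr2 and Galr3, also for galanin, differed by 0.05 and 0.03, Trhr2 by 0.013, Vipr1 and Vipr2, which bind PACAP, by 0.08 and 0.06, and Sort1, which binds neurotensin, by 0.00098. All ethanol arrays lay on one side of the control mean in experiment 2 and on the other side in experiment 1 for 4 of the 18 receptors (Hcrtr1, Trhr, Sort1 and Vipr2), against 10.6% of all gene probe sets.

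**Figure D3:**
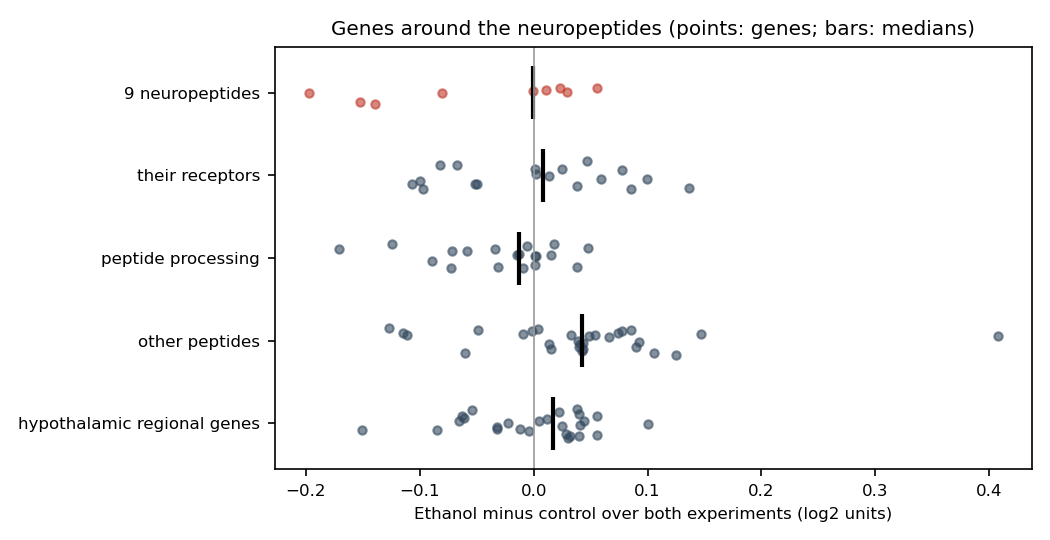
Ethanol minus control over both experiments, in log2 units, for the 9 neuropeptides (red), their receptors, genes of peptide processing, other hypothalamic peptide genes and hypothalamic regional genes. Points are genes and bars are medians, which lie between -0.013 and 0.042, and the point at 0.41 is Pomc.

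Genes that process, store or degrade peptides were measured for 19 of 21, and 0 passed adjusted p 0.05, with a median difference of -0.013. Ece2, an endothelin-converting enzyme that cleaves neuropeptides, differed by -0.17 ± 0.05 (limma adjusted p = 0.306) on the brighter of its 2 probe sets. Cadps2, a protein of dense-core vesicle release, differed by -0.12 ± 0.06 (limma adjusted p = 0.397). Qpct, the glutaminyl cyclase that forms the pyroglutamate end of some peptides, differed by -0.07 ± 0.05. Of 29 other hypothalamic peptide genes measured, 22 had a positive difference (median 0.042), where 54.4% of all gene probe sets had a negative one. Of the 29, 0 passed adjusted p 0.05, and their mean levels ran from percentile 6.15 (Npb) to 99.2 (Penk). Their smallest p were those of Nms, neuromedin S of the suprachiasmatic nucleus (0.15 ± 0.05, adjusted p = 0.342), Gnrh1, gonadotropin-releasing hormone (0.12 ± 0.05, adjusted p = 0.359), and Npy, neuropeptide Y (0.11 ± 0.05, adjusted p = 0.400). The releasing hormones Crh and Ghrh differed by 0.09 ± 0.05 and 0.07 ± 0.05, and Sst, somatostatin, by 0.04 ± 0.05. Pomc, the precursor of melanocortins and of pituitary corticotropin, differed by 0.41 ± 0.19 (adjusted p = 0.402). Its ethanol level was 7.14 on replicate 2 of experiment 2, the array with the highest Gh, and 6.32, 6.15, 6.00 and 5.83 on the other ethanol arrays, against 5.78 to 5.94 on the controls. Of 26 hypothalamic transcription factors and regional genes, 15 were higher (median 0.017), where 54.4% of all gene probe sets were lower, and 0 passed. Isl1, a homeobox factor of arcuate and striatal neurons, differed by -0.15 ± 0.06 (adjusted p = 0.375), and Hmx2, a homeobox factor of hypothalamic development, by 0.10 ± 0.05 (adjusted p = 0.398). Barhl1, another homeobox factor, differed by -0.08 ± 0.06.

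Marker lists of other tissues and regions had differences mostly of 1 sign over both experiments. The lists were chosen with earlier results of these data known, so these counts only describe them. Among all gene probe sets, 54.4% had a difference below 0. In these lists 0 genes passed adjusted p 0.05, and the part of these tissues in the neuropeptide values was not tested. Of 11 anterior pituitary markers 9 were higher, with mean levels of 6.72 to 7.31 on experiment 1's ethanol arrays, against 5.70 to 5.83 on the controls, and of 6.11 to 7.71 in experiment 2, against 6.02 to 6.32. Among them Gh differed by 2.96 ± 1.03, Prl, prolactin, by 2.72 ± 0.87, Lhb by 0.28 ± 0.09 and Ghrhr by 0.28 ± 0.08. All 13 cerebellar markers were lower, with mean levels of 10.2 to 10.6 on experiment 1's ethanol arrays, against 10.7 on both controls, and of 10.3 to 10.6 in experiment 2, against 10.5 to 10.7. The smallest p were those of Zic2 (-0.22 ± 0.07), Zic1 (-0.20 ± 0.06) and Gabra6 (-0.28 ± 0.10). All 10 choroid plexus markers were lower over both experiments, with mean levels of 8.24 to 8.32 on experiment 1's ethanol arrays, against 8.31 to 8.32 on the controls, and of 8.09 to 8.24 in experiment 2, against 8.36 to 8.48, led by Kcnj13 (-0.31 ± 0.06), Otx2 (-0.29 ± 0.06) and Kl (-0.27 ± 0.06). All 17 immediate early genes were higher, with mean levels of 7.89 to 8.63 on experiment 1's ethanol arrays, against 7.99 to 8.20 on the controls, and of 8.04 to 8.68 in experiment 2, against 7.91 to 8.20, led by Egr2 (0.62 ± 0.24), Nr4a3 (0.39 ± 0.16) and Arc (0.53 ± 0.24). The mean of the 26 hypothalamic regional genes was 6.61 to 6.68 on experiment 1's ethanol arrays, against 6.62 to 6.63 on the controls, and 6.62 to 6.64 in experiment 2, against 6.63 to 6.65.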

How the data were processed

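Each Affymetrix whole-transcript array was hybridised from 200 ng of pooled whole-brain RNA, per the labels' protocols. The values are log2 levels per probe set as deposited by the authors, made with Partek 6.6, per the submitters' processing notes. Of background correction, normalization, any batch step and the genome build, nothing is stated in the sources used. Gene symbols came from GEO's platform annotation (23410 listed, 21789 with 1 symbol, 1621 with several, 12146 not listed). Symbols were compared by Entrez identifier with the RefSeq table of GRCm38.p6, in which 21698 matched and 0 changed.

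Differences were fitted with limma 3.58.1 in R 4.3.3 (lmFit, eBayes, Benjamini-Hochberg over all 21789 probe sets) with experiment and treatment as terms, or with a mean per experiment and treatment for the within-experiment values. That first fit was tested on simulated data (21789 genes) with noise drawn independently for each gene and array. Variation shared among genes was not simulated, so the counts need not hold for the real arrays. The fit called 20 of 50 genes moved by 0.25 and 48 of 50 moved by 0.5. It called 50 of 50 moved by 1, 50 of 50 moved by 2 and 9 of 21589 unmoved genes. Surrounding lists used the brightest probe set per gene. Named genes were all 9 neuropeptides, the receptors, up to 3 smallest p per list with Pomc, Crh, Ghrh, Sst, Gh and Prl, and the 2 genes most like each neuropeptide. The neuropeptides and lists were chosen with earlier results of these data known. Motifs were searched with Python 3.11.15. Alternatives were other normalizations, filters, priors, weights and experiment terms, a replicate block, all probe sets, an unmoderated model, each experiment alone and each array left out.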

Additional observations from a re-analysis of the deposited data

Results flagged for a closer look

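Among the 18 neuropeptide receptors, 4 had all ethanol arrays on one side of the control mean in experiment 2 and all on the other side in experiment 1, as did 10.6% of all gene probe sets. Experiment 2 minus experiment 1 was -0.25 for Hcrtr1 (-0.15 in experiment 2 and 0.10 in experiment 1, limma adjusted p = 0.665) and -0.34 for Trhr (in the same order -0.24 and 0.10, limma adjusted p = 0.696). It was -0.16 for Sort1, the sortilin receptor that also binds neurotensin (-0.06 and 0.10, limma adjusted p = 0.788), and 0.33 for Vipr2, which binds PACAP and vasoactive intestinal peptide (0.19 and -0.14, limma adjusted p = 0.750). None passed the adjusted threshold, so the experiments were not shown to differ. None of the 9 neuropeptides met the same rule, but Oxt missed it by a single array, ethanol replicate 1 of experiment 2, which lay 0.00023 log2 units above the control mean, and its difference between experiments (-0.22) was larger than that of Sort1.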

How the results depend on the processing

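None of the 9 neuropeptides passed an adjusted p of 0.05 under any alternative run, and the smallest was 0.144 (Adcyap1 without ethanol replicate 2 of experiment 1). Adcyap1, Trh, Gal, Nts and Hcrt kept their sign over both experiments under each of 21 alternatives. Several of these kept the same values per array, and each experiment had as many ethanol as control arrays, so the estimate could not move. They were the filter on dim probe sets, all probe sets, the prior, the unmoderated model, the replicate block, no experiment term and the permutation. Signs turned for small differences: Avp over both was -0.034 after quantile normalization and -0.0071 with weights by mice per pool, Cartpt 0.028 and 0.013 after median centring and with those weights, Hcrt in experiment 1 0.0050 after quantile normalization and 0.0062 after median centring, Gal in experiment 1 0.00051 after median centring, and the Adcyap1 difference between experiments 0.013 with array weights. Leaving out each array in turn gave over both experiments -0.028 to 0.044 for Avp, -0.019 to 0.060 for Oxt, -0.036 to 0.073 for Pmch and -0.052 to 0.064 for Cartpt; in experiment 1 -0.085 to 0.045 for Hcrt, -0.12 to 0.14 for Pmch, -0.088 to 0.037 for Gal, -0.010 to 0.011 for Nts and -0.38 to 0.017 for Adcyap1; in experiment 2 -0.074 to 0.11 for Pmch, -0.16 to 0.049 for Cartpt and -0.20 to 0.00099 for Trh; and for the difference between experiments -0.10 to 0.16 for Pmch, -0.035 to 0.28 for Trh and -0.22 to 0.18 for Adcyap1. Counts of gene probe sets past the threshold, 0 in each comparison, were 0 to 1 over both experiments, 0 to 235 in experiment 1, 0 to 1 in experiment 2 and 0 to 94 for their difference with an array left out (the 235 and 94 without ethanol replicate 1 of experiment 1, where the lone ethanol array is assumed to vary like the others). Experiment 1 fitted alone gave 1, and experiment 2 gave 3 with a trended robust prior and 2 with array weights. The deviations of same-numbered arrays correlated at -0.146 to 0.230. With so few arrays per group, these values cannot show whether the numbers pair the arrays. With the replicate block the Adcyap1 difference was -0.20 by construction, with a limma adjusted p of 0.368. Avp has no value under the filter on dim probe sets. The cause of these shifts was not tested.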
